A study of Homo sapiens with 6 samples.

Results

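The 30 genes described here encode enzymes of glycolysis, of the pentose phosphate pathway, of gluconeogenesis and of the malate-aspartate shuttle. They were chosen by name, and PCK1, another phosphoenolpyruvate carboxykinase gene, is not among them. A listed region was taken to belong to one of them when the annotation in the list gave that gene's symbol, and each gene was also examined by position along its transcript. Of the 16428 genes with an assigned region in any list, 28 were among these 30, and PFKM and LDHB had none. The 30 genes held 139 of 46045 RPB1 regions in WT, 118 of 41605 in SHP-1 KO, 314 of 102674 pSer2 regions in WT and 244 of 81012 in SHP-1 KO cells.

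The regions came from ChIP-seq in HepG2, a human hepatoma cell line, with an antibody to RPB1, the largest subunit of RNA polymerase II, and an antibody to RPB1 phosphorylated on Ser2 (pSer2). SHP-1-WT cells are labelled as the CRISPR control, and SHP-1-KO cells are a CRISPR knockout made with guides to exons for the PTPase domain of PTPN6, the gene for the tyrosine phosphatase SHP-1. Both were untreated. The methods describe single-cell cultures, with untransfected cells and cells with a nontargeting guide as controls, but do not state which served for ChIP-seq, so that each genotype may stand for 1 clone. There was 1 library per antibody and genotype, with 2 input libraries that are not analysed here, and no difference below has a replicate check or a p-value.

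Glycolysis splits glucose to pyruvate, and its committed steps, catalyzed by hexokinase, phosphofructokinase and pyruvate kinase, run in 1 direction only. The steps between them are reversible and also serve gluconeogenesis, the route by which the liver makes glucose, which bypasses the committed steps with enzymes of its own. The pentose phosphate pathway branches from glycolysis to make NADPH and ribose, and the malate-aspartate shuttle moves reducing equivalents and oxaloacetate carbon between mitochondrion and cytosol. RNA polymerase II is densest near the start of an active gene, and Ser2 of the RPB1 tail becomes phosphorylated as the polymerase elongates, so that pSer2 is found along the gene and past its end.

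Sequencing depth is unknown, since the lists hold regions and not reads. Of 5 genes that liver cells express strongly, ALB, APOB and SERPINA1 were covered over 100% of their transcripts in all 4 lists. APOA1 was covered over 100% by RPB1 in both genotypes and by pSer2 over 100% in WT and 54.6% in KO, and TTR by RPB1 over 88.5% and 35.9% and by pSer2 over 100% and 48.8%. At the start of the Ensembl canonical transcript of PTPN6, no list held a region, and RPB1 regions do not measure whether a protein is lost. The listed RPB1 fold enrichments were lower in SHP-1 KO cells over the genome. Among 11497 protein-coding genes with an RPB1 region at their start in both lists, the median log2 ratio of KO to WT was -0.48, and 39.7% were lower in KO by 1.5-fold or more while 1.16% were higher. Differences at the enzyme genes are therefore given as measured and against this median. Here the strength of a region is its fold enrichment over input at the summit, and a start is the 1 kb on either side of the first base of the canonical transcript (GENCODE release 44, hg38). The value at a start is that of the strongest region that overlaps this window, whose summit can lie outside it. For RPB1 this was so at HK2 in WT, where the summit lay 1023 bp inside the gene.

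Promoter sequences are printed for the 4 genes that stood at the ends of the range at their starts: ALDOC, whose start had a region in WT alone, PFKFB4, whose ratio was lowest, and GOT1 and PCK2, whose ratios were highest. Each is the RefSeq window of 250 bases before to 50 bases after the start in GRCh38.p14, written 5′ to 3′ on the strand of the gene. The windows are chr17:28576846-28577145 on the minus strand for ALDOC, chr3:48556754-48557053 on the minus strand for PFKFB4, chr10:99430575-99430874 on the minus strand for GOT1 and chr14:24094061-24094360 on the plus strand for PCK2. Capitals mark matches, on either strand, to the hypoxia response core ACGTG in ALDOC and to the amino acid response element TGATGNAA in GOT1. PFKFB4 and PCK2 held no match to either, nor to the STAT motif TTCNNNGAA.
ALDOC: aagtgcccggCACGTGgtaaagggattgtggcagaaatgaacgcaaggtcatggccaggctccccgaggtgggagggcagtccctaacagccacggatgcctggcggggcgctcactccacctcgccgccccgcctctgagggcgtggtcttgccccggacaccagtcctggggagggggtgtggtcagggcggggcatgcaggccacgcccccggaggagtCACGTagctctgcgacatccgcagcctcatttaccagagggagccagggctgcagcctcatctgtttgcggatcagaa
PFKFB4: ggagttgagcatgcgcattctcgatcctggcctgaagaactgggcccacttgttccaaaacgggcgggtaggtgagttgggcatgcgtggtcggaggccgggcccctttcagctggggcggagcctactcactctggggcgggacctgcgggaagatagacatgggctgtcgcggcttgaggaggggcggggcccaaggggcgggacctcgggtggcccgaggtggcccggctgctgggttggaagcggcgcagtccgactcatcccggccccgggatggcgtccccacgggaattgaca
GOT1: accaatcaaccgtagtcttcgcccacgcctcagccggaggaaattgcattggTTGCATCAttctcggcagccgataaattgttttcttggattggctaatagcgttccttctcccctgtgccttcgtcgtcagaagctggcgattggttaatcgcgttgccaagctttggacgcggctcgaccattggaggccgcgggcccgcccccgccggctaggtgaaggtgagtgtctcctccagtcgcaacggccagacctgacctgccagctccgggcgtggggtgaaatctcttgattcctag
PCK2: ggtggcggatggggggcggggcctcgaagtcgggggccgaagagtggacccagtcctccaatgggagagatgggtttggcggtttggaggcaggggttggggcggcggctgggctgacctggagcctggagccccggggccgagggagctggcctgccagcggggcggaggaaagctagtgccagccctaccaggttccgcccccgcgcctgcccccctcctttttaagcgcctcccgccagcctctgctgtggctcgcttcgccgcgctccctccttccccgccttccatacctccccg

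The ALDOC window held 3 matches to ACGTG, counting both strands, so that a palindromic CACGTG counts on each. All 300 of its bases lay in RPB1 regions in WT and 0 in KO, and 289 lay in pSer2 regions in WT and 0 in KO. The PFKFB4 window lay in RPB1 regions over 300 bases in WT and 248 in KO. The GOT1 and PCK2 windows lay in RPB1 regions over all 300 bases in both genotypes. Among the 15344 genes with a window, 23.8% held ACGTG, against 13 of the 30 enzyme genes (ALDOA, ALDOC, ENO2, GAPDH, GOT2, GPI, HK2, LDHA, PC, PFKFB3, PGD, PGK1 and PKLR). TGATGNAA was found in 2.4% of all windows and, of the 30, in GOT1. TTCNNNGAA was found in 6.69% of all windows and in 0 of the 30.

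RPB1 at the starts was lower in SHP-1 KO than in WT cells at 20 of 24 enzyme genes by position, beside 87.4% of all genes. The lowest median ratio was that of the committed steps of glycolysis, a group that here counts the regulators PFKFB3 and PFKFB4. That rank rests on them, since PFKL, PKM, PKLR and HK2 had log2 ratios of -0.94, -0.80, -0.68 and -0.21. The pentose phosphate genes had a median of -0.79. PC, PCK2, GOT1 and GOT2, of gluconeogenesis and the aspartate aminotransferases, were not lower by 1.5-fold. Nor were HK2, GPI, PGK1, PGAM1, ENO1, LDHA, TKT and MDH1, so this was not particular to those groups. By the authors' promoter class and gene assignment, 12 of 23 genes with a region in both lists were lower in KO by 1.5-fold or more and 0 were higher, beside 38.2% and 2.12% of all 11250 genes. Their median log2 ratio of KO to WT was -0.65, against -0.46 for all genes. By position, 12 of 24 were lower and 0 higher, with a median of -0.61 against -0.48. Within 1 kb of the start, 25 of the 30 genes had an RPB1 region in WT and 24 in KO, and HK1, PFKM, PFKP, LDHB and FBP1 had none in either. The strongest region at the start was assigned to a neighboring gene at PGAM1, ENO1 and PCK2 in both RPB1 lists and at ENO2 in KO, so that the values below are by position. For ENO2 this sets the KO value at 20.1, where the authors' assignment left 4.75.

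The enzyme genes carried strong starts. Their fold enrichment ran from 11.9 to 100.7 in WT with a median of 39.6, and from 7.45 to 82.9 in KO with a median of 25.2, against medians of 29.0 and 20.8 for all genes with a region. GAPDH had the strongest start in WT and PCK2 in KO.

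**Figure D1:**
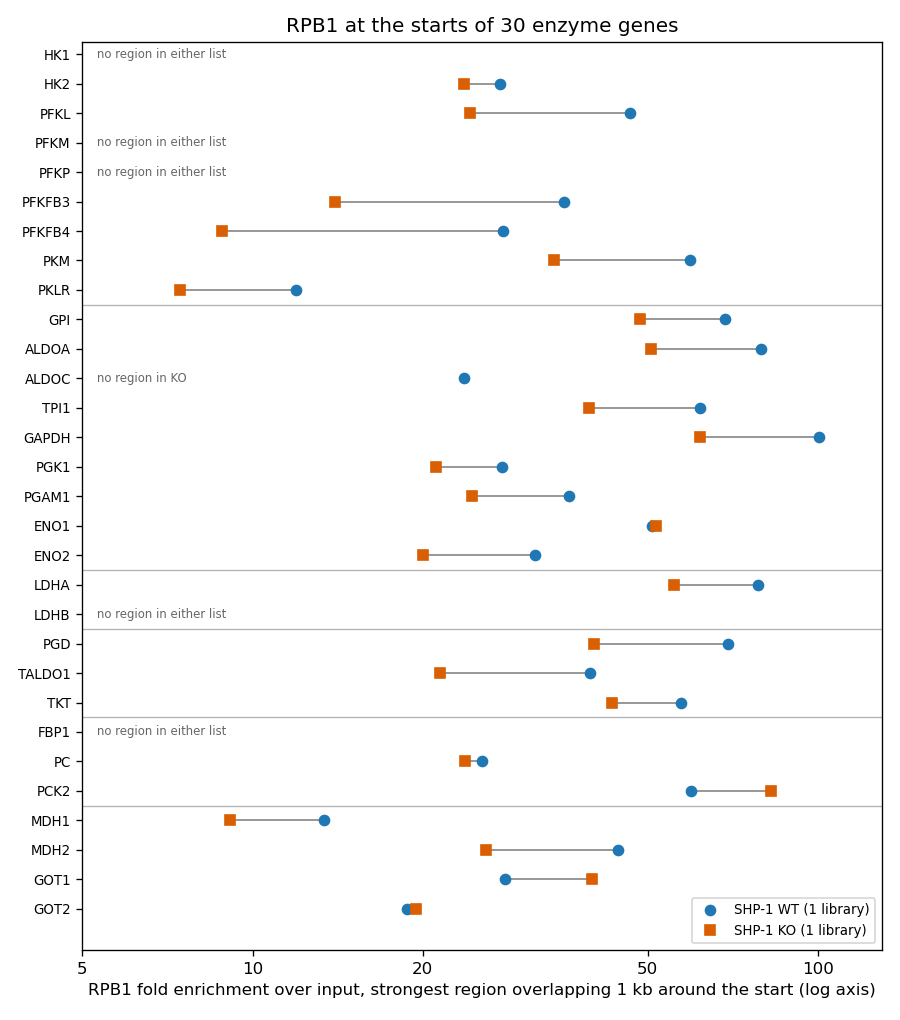
RPB1 fold enrichment over input (log axis) of the strongest region overlapping the 1 kb on either side of the start of each of the 30 enzyme genes, with circles for the SHP-1 WT library, squares for the SHP-1 KO library and grey lines between the groups of enzymes. The KO square lies left of the WT circle at 20 of 24 genes and right of it at ENO1, PCK2, GOT1 and GOT2, and ALDOC has a circle alone.

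Among the committed steps of glycolysis, 5 of 6 genes with a start region in both lists were lower in KO by 1.5-fold or more. This stands beside 39.7% of all genes, and relative to the median of all genes 2 of the 6 were lower, PFKFB3 and PFKFB4. The median log2 ratio of the 6 was -0.87. PFKFB4, which makes and breaks down fructose 2,6-bisphosphate, the strongest activator of phosphofructokinase, had the lowest ratio of the 24. Its RPB1 fold enrichment was 27.7 in WT and 8.83 in KO, a log2 ratio of -1.65, and 0.974% of all genes had a lower one. The WT region spanned chr3:48556264-48557862, and the strongest KO region was shorter, at chr3:48557108-48557596. A further KO region at chr3:48556362-48557001 had 6.31. With the fold enrichments of its promoter regions summed, by the authors' assignment, the log2 ratio of PFKFB4 was -0.81. PFKFB3, another enzyme of this kind, had 35.5 in WT and 14.0 in KO (log2 ratio -1.35), with 3.22% of genes lower. By the strongest region, both genes thus stood near the lower end of the distribution over all genes.

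PFKL, the liver form of phosphofructokinase, had an RPB1 fold enrichment of 46.6 in WT and 24.3 in KO, a log2 ratio of -0.94. PKM and PKLR, the muscle-type and liver-type pyruvate kinase genes, had 59.5 and 11.9 in WT and 34.1 and 7.45 in KO, so that both stood lower by a similar factor from very different levels. HK2, a hexokinase that many tumor cells use, differed from these, with 27.4 in WT and 23.6 in KO, a log2 ratio of -0.21 that 73.8% of genes were below. The regions assigned to HK1, another hexokinase gene, all lay on chromosome 10 between 69264327 and 69268854, upstream of the canonical start of HK1 at 69318847 and at the 3′ end of HKDC1, a neighboring hexokinase gene that ends at 69267552. HKDC1 was named after its values were seen. It had a start region of 28.1 in WT and 11.7 in KO with RPB1, and pSer2 regions covered 37.5% of its transcript in WT and 11.0% in KO.

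Among the reversible steps, 4 of 8 genes were lower by 1.5-fold or more and none was higher, beside 39.7% and 1.16% of all genes. The median log2 ratio was -0.61. GAPDH, which oxidizes glyceraldehyde 3-phosphate, had an RPB1 fold enrichment of 100.7 in WT and 62.0 in KO, a log2 ratio of -0.70. The aldolase gene ALDOA had 79.4 and 50.7, the triosephosphate isomerase gene TPI1 61.8 and 39.4, and the enolase gene ENO2 31.7 and 20.1. These 4 log2 ratios lay between -0.70 and -0.65, close to one another. GPI, PGK1 and PGAM1, for phosphoglucose isomerase, phosphoglycerate kinase and phosphoglycerate mutase, lay between -0.57 and -0.39 and did not pass 1.5-fold.

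ENO1, the main enolase gene of liver cells, stood apart from the reversible steps with 50.9 in WT and 51.7 in KO, a log2 ratio of 0.02 that 88.5% of all genes were below. Its start region was assigned in both lists to the antisense gene ENO1-AS1, and reads from a gene and its antisense partner cannot be told apart in ChIP-seq. ALDOC, another aldolase form, best known from brain, had a WT region of 23.6 at chr17:28576699-28577391, with its summit 10 bp from the start, and no region in KO. Of all 12040 genes with an RPB1 region at the start in WT, 4.51% had none in KO, and of the enzyme genes this was 1 of 25. The lists carry regions that passed a threshold only, so a missing region does not show that RPB1 was absent.

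LDHA, the lactate dehydrogenase subunit that favors lactate formation, had an RPB1 fold enrichment of 78.4 in WT and 55.6 in KO, a log2 ratio of -0.50 that lay at the median of all genes. In the pentose phosphate pathway, 2 of 3 genes were lower by 1.5-fold or more, beside 39.7% of all genes. TALDO1, for transaldolase, had 39.6 in WT and 21.4 in KO, and PGD, for 6-phosphogluconate dehydrogenase, had 69.5 and 40.1, with log2 ratios of -0.88 and -0.79. TKT, for transketolase, had 57.2 and 43.3 (log2 ratio -0.40). The oxidative and the nonoxidative branch each held a gene past 1.5-fold.

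Of the gluconeogenic genes, PCK2 was higher in KO by position, PC was lower without passing 1.5-fold and FBP1 had no start region. PCK2, the mitochondrial phosphoenolpyruvate carboxykinase gene, had an RPB1 fold enrichment of 59.8 in WT and 82.9 in KO, a log2 ratio of 0.47 that 97.9% of genes were below. The KO region ran unbroken over chr14:24093075-24106700, and the WT region at the start over chr14:24093375-24097529. In WT 2 regions overlapped the transcript, and RPB1 covered 97.9% of it, against 100% in KO, so the longer KO region does not show a wider spread. Both start regions were assigned to the neighbor NRL. Under the authors' assignment PCK2 had a weaker WT region of 10.7 at its promoter and none in KO. PC, for pyruvate carboxylase, which makes oxaloacetate, had 25.5 in WT and 23.8 in KO. FBP1 encodes fructose 1,6-bisphosphatase.

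In the malate-aspartate shuttle, the aminotransferases and the malate dehydrogenases differed. GOT1, for the cytosolic aspartate aminotransferase, had an RPB1 fold enrichment of 27.9 in WT and 39.9 in KO, a log2 ratio of 0.52 that 98.3% of genes were below and the highest of the 24. GOT2, for the mitochondrial enzyme, had 18.8 and 19.5 (log2 ratio 0.05). MDH2, the mitochondrial malate dehydrogenase gene, had 44.4 and 25.9, and the cytosolic MDH1 had 13.4 and 9.13, with log2 ratios of -0.78 and -0.55.

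Set against the median of all genes, PFKFB3 and PFKFB4 were lower by 1.5-fold or more and PCK2 and GOT1 higher, that is 2 and 2 of 24, beside 8.63% and 8.53% of all genes. Most of the lower values thus lay within the change seen over the genome. Of the 24 genes, 16 lay below the median of all genes. Over all genes the median log2 ratio was -0.39 at a mean fold enrichment under 10, -0.53 at 10 to 20, -0.51 at 20 to 30, -0.47 at 30 to 50 and -0.35 at 50 or above. The enzyme genes had -0.68 (n = 1), -0.55 (n = 3), -0.57 (n = 7), -0.71 (n = 6) and -0.50 (n = 7) in the same ranges.

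**Figure D2:**
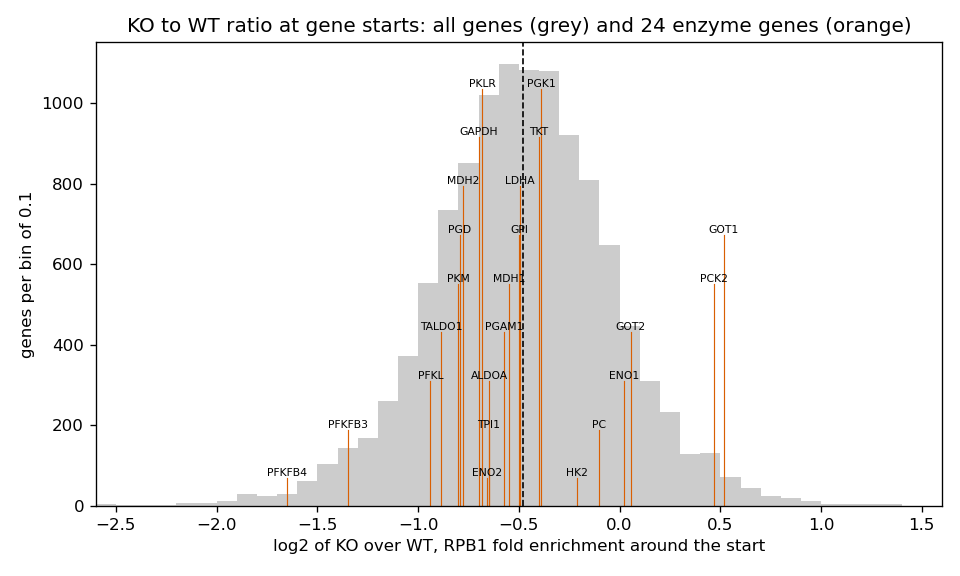
Histogram of the log2 ratio of SHP-1 KO to WT in RPB1 fold enrichment at the start (horizontal axis) over 11497 genes (grey, number of genes per bin on the vertical axis), with the 24 enzyme genes measured in both as orange lines, whose heights only space the labels, and the median of all genes, -0.48, as a dashed line. PFKFB4 and PFKFB3 stand at the left, PCK2 and GOT1 at the right, and most others lie around or left of the median.

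The elongating form, pSer2, covered less of the transcript in KO at 14 of the 20 enzyme genes that had cover in both lists, beside 69.7% of all genes. The largest differences were at PFKL, PGK1, ENO2, GPI and PFKFB4, with the opposite order at HK2. The median share of the transcript covered by pSer2 regions over the 30 genes, those without cover included, was 25.8% in WT and 9.68% in KO. It depends on which genes lie in the middle. The summed cover from 1 kb inside the start to the end differed less, with 179941 bp in WT and 153925 bp in KO. By the authors' assignment, 7 of 18 genes had a body length, the summed length of regions in exons, introns and UTRs, that was lower in KO by 1.5-fold or more, and 3 had a higher one, beside 37.1% and 11.9% of all genes. The median log2 ratio was -0.43 against -0.32. Among the 7 lower genes were HK1 (-1.12), whose assigned regions lay at the end of HKDC1, and GAPDH (-2.31), whose inner transcript was fully covered in both genotypes by position. Measured by position, as the bases covered from 1 kb inside the start to the end of the transcript, 7 of 20 genes were lower and 0 higher, beside 33.7% and 7.52%, with a median of -0.29 against -0.26. The counts lay near those of all genes.

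At PFKL, which spans chr21:44300053-44327373, pSer2 regions covered 6047 bp of the inner transcript in WT and 624 bp in KO, a log2 ratio of -3.28 that 1.52% of genes were below. RPB1 regions covered 5891 bp and 977 bp of the same stretch, a log2 ratio of -2.59. RPB1 start strength, RPB1 cover and pSer2 cover of PFKL were thus lower in KO, while pSer2 at its start had 3.81 in WT and 4.29 in KO. The pSer2 regions inside PFKL were weak, and the strongest body region assigned to it had 4.06 in WT and 2.85 in KO. At a −log10 q-value of at least 5, PFKL was not among the genes with pSer2 body regions in both lists. Past its end, pSer2 covered 4751 bp of the next 5 kb in WT and 4317 bp in KO. Most of that cover lay in a region assigned to the neighbor CFAP410 in each genotype, so it need not belong to PFKL.

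PGK1 had 8586 bp of pSer2 cover in WT and 1781 bp in KO (log2 ratio -2.27), and ENO2 had 894 bp and 231 bp (-1.95). GPI had 7770 bp and 2267 bp (-1.78), while its RPB1 cover was 663 bp and 922 bp. By the authors' assignment the differences were smaller, with pSer2 body lengths of 13318 and 7438 bp at PGK1 (-0.84) and 6508 and 3106 bp at GPI (-1.07). In the 5 kb past the end of PGK1, pSer2 cover was 5000 bp in both genotypes. The shorter cover of PGK1 in KO was thus inside the gene.

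PFKFB4 had 3804 bp of pSer2 cover in WT, most of it in the last part of the transcript, and 0 bp in KO, and past its end 1797 bp and 0 bp. PKLR had 882 bp in WT, PFKP, the platelet-type phosphofructokinase gene, 467 bp, and MDH1 262 bp, each with 0 bp in KO. Of the cover at PKLR, 242 bp lay in a region assigned to PKLR and the rest in regions assigned to HCN3 at its end. These 4 of 24 genes with pSer2 cover in WT and none in KO stand beside 15.8% of all genes. HK1, PFKM, PFKFB3, ALDOC, LDHB and FBP1 had no pSer2 cover in either genotype by this measure, which for PFKFB3 goes with an RPB1 region at its start in both.

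HK2 stood furthest in the other direction, without passing 1.5-fold by position. Its pSer2 cover was 31182 bp in WT and 42059 bp in KO, or 52.9% and 71.8% of the transcript on chr2:74834127-74893359, with a log2 ratio of 0.43 that 89.9% of genes were below. The strongest pSer2 region that overlapped its start window had a fold enrichment of 6.58 in WT and 3.93 in KO, with summits 1190 and 1165 bp inside the gene, and a weaker region upstream had 2.85 and 3.91. TKT and GOT2 also had more pSer2 cover in KO, with 11826 and 14243 bp for TKT and 2739 and 3328 bp for GOT2, and neither passed 1.5-fold by position. By the authors' assignment HK2, TKT and PC passed 1.5-fold. PC turned to the other side by position, with 8586 bp in WT and 3653 bp in KO, where regions inside PC were classed as promoters of its other starts or assigned to LRFN4. At HK2 the assignment differed between the lists. WT regions of 609 and 3558 bp inside HK2 were assigned to LINC01291, and a KO region of 10410 bp that spans both was assigned to HK2.

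**Figure D3:**
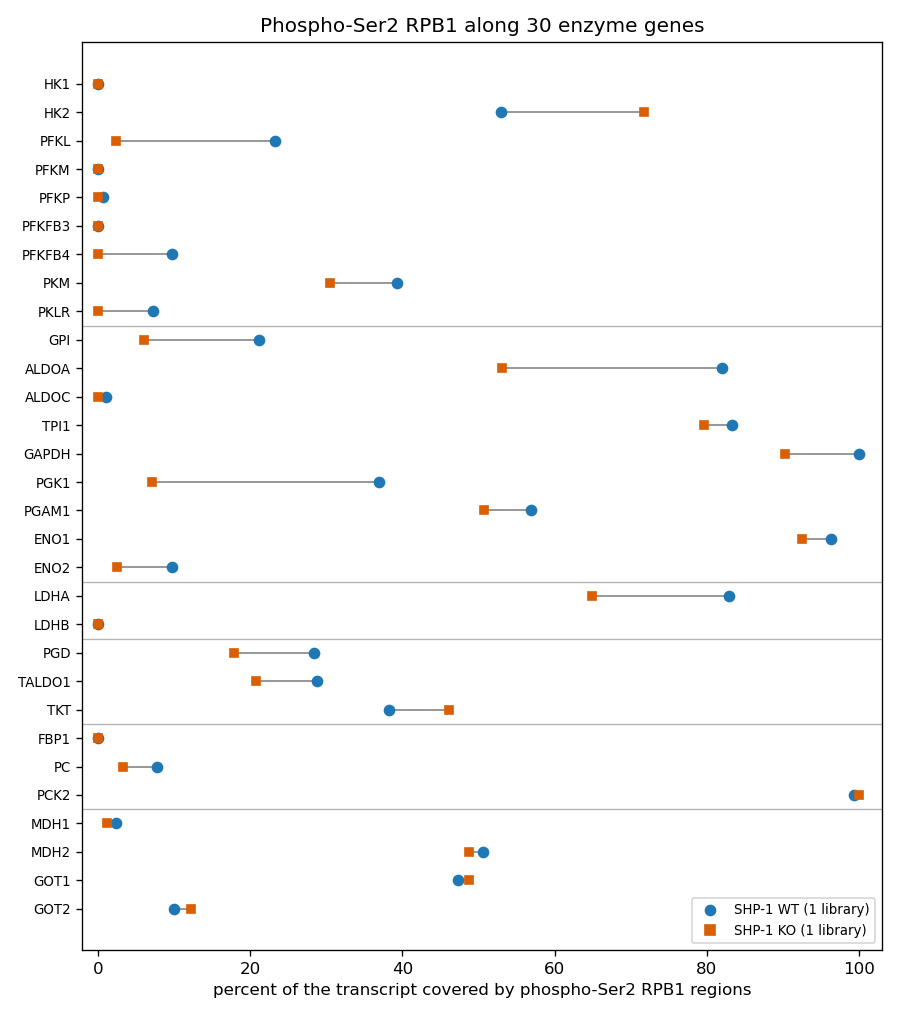
Percent of the transcript of each of the 30 enzyme genes covered by pSer2 regions, with circles for SHP-1 WT, squares for SHP-1 KO and grey lines between the groups of enzymes. PGK1, ALDOA and PFKL show the widest gaps with the KO value lower, HK2 the widest gap with the KO value higher, and GAPDH, ENO1 and PCK2 lie above 90% in both.

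GAPDH was covered over the whole 2854 bp of its inner transcript in both genotypes, and ENO1 (16195 and 15878 bp) and PCK2 (8750 and 8814 bp) over nearly all of it, so that cover there could hardly be higher and does not show strength. GOT1 had 15748 and 15976 bp and MDH2 9642 and 9383 bp, ratios of 1.01 and 0.97. PKM (12491 and 9409 bp), LDHA (11008 and 8768 bp), TALDO1 (5058 and 3506 bp), PGAM1 (3991 and 3676 bp) and TPI1 (2270 and 1916 bp) had less in KO without passing 1.5-fold, and ALDOA (3068 and 1973 bp) and PGD (5821 and 3586 bp) passed it.

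By group of enzymes, pSer2 cover inside the genes made up 40.7% of the summed transcript length of the reversible steps in WT and 27.3% in KO, and 11.1% and 7.98% of that of the gluconeogenic genes. The committed steps had 14.4% and 13.6%, and HK2 alone held 31182 of their 54873 bp in WT and 42059 of 52092 bp in KO. The pentose phosphate genes had 32.3% and 30.3%, the lactate dehydrogenases 30.3% and 24.1%, and the shuttle genes 28.8% and 29.1%. These sums rest on few genes. Without PGK1 and GPI the reversible steps had 29272 bp in WT and 26528 bp in KO, and without HK2 the committed steps had 23691 and 10033 bp. The median log2 ratio was -0.61 for the gluconeogenic genes (n = 2), -0.53 for the pentose phosphate genes (n = 3) and -0.44 for the reversible steps (n = 8). The gluconeogenic value is the middle of PC at -1.23 and PCK2 at 0.01, which was covered nearly fully in both genotypes. In the 5 kb past the ends of the 30 genes, pSer2 regions covered 78200 bp in WT and 65281 bp in KO and RPB1 regions 48172 and 38975 bp, counting any neighboring gene that lies there.

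RPB1 cover inside the genes had no common direction. By the authors' assignment 5 of 15 genes were lower and 5 higher, beside 35.2% and 18.1% of all genes, and by position 6 of 19 were lower and 2 higher, beside 32% and 14%. The lower ones by position were PFKL, PKM (2428 and 890 bp), LDHA (6515 and 2599 bp), TKT (1275 and 612 bp), PC (6654 and 2939 bp) and MDH2 (3794 and 2187 bp). The higher ones were GOT1, with 847 bp in WT and 2629 bp in KO, and PGD, with 200 and 1441 bp. At PGD, RPB1 cover was thus higher in KO while the start and the pSer2 cover were lower. PFKFB4, PKLR and FBP1 had RPB1 cover in WT of 584, 271 and 364 bp and none in KO, which makes 3 of 22 genes beside 18.2% of all genes.

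The count for pSer2 at the starts changed with the way regions were placed. By the authors' assignment 4 of 18 genes, HK2, GPI, TPI1 and PCK2, were lower by 1.5-fold or more and 0 higher, beside 13.5% and 8.39% of all genes. By position 1 of 14, HK2, was lower and 1, ENO1, higher, beside 14.8% and 10.6%, and the median log2 ratio changed from -0.15 to 0.09. Counting only regions whose summit lay within 1 kb of the start, 0 of 12 were lower and 2, GAPDH and ENO1, were higher, beside 13.7% and 10.4% of all genes. ENO1 had a pSer2 fold enrichment at its start of 7.20 in WT and 11.4 in KO. At GAPDH the summits within the window had 4.58 and 14.7. The WT region over its start, with 16.4, had its summit 4109 bp from the start, past the end of the gene, so these GAPDH values do not compare like regions. TPI1 had a region of 25.6 that overlapped its transcript in WT, and its strongest overlapping region in KO had 15.9. GPI, ALDOC, PGK1 and PGAM1 had a pSer2 start region in WT and none in KO, 4 of 18 beside 19.8% of all genes.

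**Figure D4:**
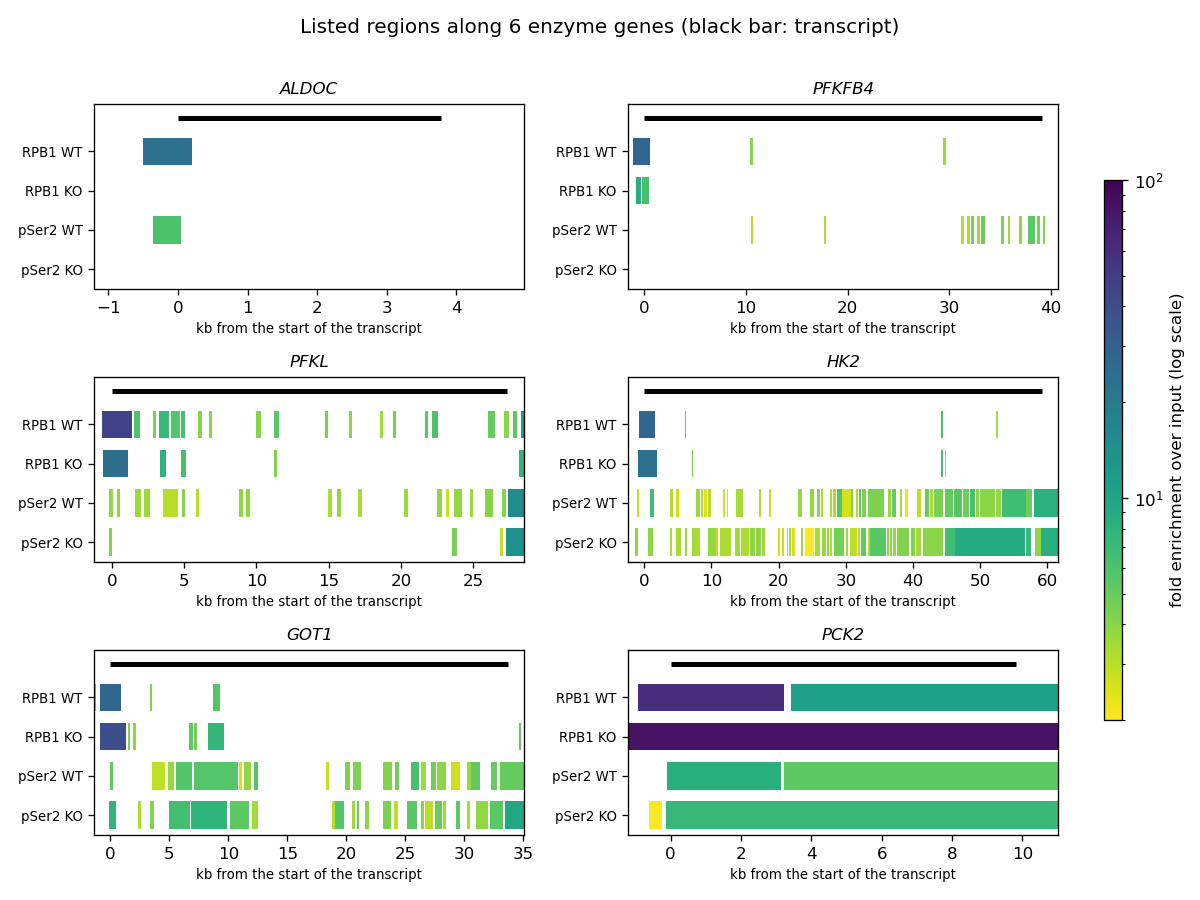
Listed regions of the 4 libraries along ALDOC, PFKFB4, PFKL, HK2, GOT1 and PCK2, drawn to scale in kb from the start in the direction of transcription, with the transcript as a black bar and the fold enrichment over input as color on a log scale. PFKL has few regions inside the gene in SHP-1 KO, PFKFB4 has no pSer2 region in KO, and HK2 has a longer stretch of pSer2 in KO.

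Region by region, the lists of the 2 genotypes overlapped in part. Of the WT RPB1 regions, 51.1% (71 of 139, 95% Wilson interval 42.9 to 59.2, which covers counting error only) were met by a KO region by at least 1 bp, against 61.9% over the whole list. Of the KO RPB1 regions, 68.6% (81 of 118, 59.8 to 76.3) were met by a WT region, against 74.9%. For pSer2 the shares were 59.9% (188 of 314, 54.4 to 65.1) of the WT and 82.4% (201 of 244, 77.1 to 86.6) of the KO regions, against 52.2% and 69.9% over the lists. These intervals treat regions as independent, but many lie in the same gene. HK2 held 40 of the 314 and 43 of the 244 pSer2 regions, so the intervals are too narrow to judge a difference from the whole list. In the WT RPB1 list, 66.1% of the promoter regions of the enzyme genes were met, against 76.5% over the list, and 29.1% of those in the gene bodies, against 50.0%. In the KO RPB1 list these shares were 88.5% against 86.8% and 46.8% against 61.8%. In WT the RPB1 regions of these genes that were met had a median fold enrichment of 7.58 and the others 4.51.

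TPI1, GAPDH, ENO2 and LDHB lie on 12p with PTPN6, the edited gene, and the end of ENO2 is 27.7 kb from its canonical start, that of TPI1 80.4 kb and that of GAPDH 413 kb. The log2 ratios of RPB1 at the start were -0.65, -0.70 and -0.66 for TPI1, GAPDH and ENO2. Enzyme genes on other chromosomes ranged from -1.65 at PFKFB4 to 0.52 at GOT1. An effect of nearness to PTPN6 was not tested. ENO1 and PGD lie on 1p and had ratios of 0.02 and -0.79.

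Of 41 further genes of the same pathways, among them glucose transporters, pyruvate dehydrogenase kinases and glucose 6-phosphatases, 26 had an RPB1 start region in both lists by position. Of these, 9 were lower in KO by 1.5-fold or more and 0 higher, beside 39.7% and 1.16% of all genes. Their median log2 ratio was -0.55. The pSer2 cover of the further genes was lower in 9 and higher in 1 of 21, beside 33.7% and 7.52% of all genes. Of 20 hypoxia response genes outside the pathway, a program that also drives many glycolytic genes, 7 of 17 were lower at the start and 0 higher, with a median of -0.54. Their pSer2 cover was lower in 4 and higher in 0 of 9. The shares of all genes above apply to these counts as well. Of 15 hypoxia genes with pSer2 cover in WT, 6 had none in KO, beside 15.8% of all genes. The medians of both lists at the start lay within 0.1 of the median of all genes.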

How the data were processed

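RPB1 and pSer2 RPB1 regions from 4 ChIP libraries were used. Per the labels and methods, the authors used Trimmomatic for adapter trimming, BWA for alignment to hg38 and MACS2 for narrow regions, library by library, with the matching input as background. Tool versions are not given in the sources used here. The authors deposited for each region a fold enrichment over input at the summit, a ratio, and the −log10 q-value, and they annotated its width, feature class and nearest gene. The smallest −log10 q-value was 1.31 in the deposited lists. A ratio to input depends on the depth of both libraries, so ratios of KO to WT were also set against the median of all genes. A table of the authors' own RPB1 comparison, with p-values and numbers of windows per region, was not used.

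For each gene, the highest fold enrichment among its promoter regions, which lie within 1000 bp of a start, and the summed width of its body regions were taken from the authors' assignment. The same was computed by position on Ensembl canonical transcripts (GENCODE release 44). A gene was counted as lower or higher past 1.5-fold, with a region in both lists, and as having a region in 1 list otherwise. Values in all libraries were given for genes past 1.5-fold or with a region in 1 list and for reference genes of each step. The 30 genes, the lists of 41 and 20 genes and these rules were chosen with earlier results of these data known. The functions were tested on simulated data. Computations ran in Python 3.11.15 with SciPy 1.17.1, NumPy 2.4.6, pandas 2.3.3 and matplotlib 3.10.9. Alternatives were another placement, scale, fold, q-value, overlap and summary of regions.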

Additional observations from a re-analysis of the deposited data

How the results depend on the processing

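With 1 library per antibody and genotype, no setting supplies an error, and no paired analysis was possible because the results come from no test. Depth is unknown. The authors' promoter class already ends at 1 kb from a start, so a narrower 1 kb class gave no second value. Of the alternatives, 77 of the values of the groups of genes stayed in direction and size, 29 moved and 6 changed sign. Of the values of single genes, 279 stayed, 25 moved and 5 changed sign. The causes of these moves were not tested.

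For RPB1 promoters, the count of 12 lower was 3 relative to the median of all genes, 3 with a fold of 2, and 2 by position and relative to the median. The count of 0 higher was 2 relative to the median, 1 with summed fold enrichments, and 2 by position and relative. For RPB1 bodies, the count of 5 higher was 3 at a −log10 q-value of at least 5 and 2 by position. The median log2 ratio of RPB1 bodies turned from -0.15 to 0.080 relative to the median, 0.089 with the downstream class and 0.037 without the genes on 12p. Leaving out the genes on 12p or 1p and the settings by position and relative and by summit were chosen after seeing the data.

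For pSer2 promoters, the count of 4 lower was 1 by position, 2 with a fold of 2, 7 summed, 1 by position and relative and 0 with the summit within 1 kb of the start. The count of 0 higher was 1 relative, 1 by position, 2 summed, 2 by position and relative and 2 by summit, and the median turned to 0.094 by position, 0.14 by position and relative and 0.14 by summit. For pSer2 bodies, the count of 7 lower was 4 with a fold of 2, and the count of 3 higher was 0 by position, 1 with a fold of 2 and 1 by position and relative. Single genes that changed side from a main value past 1.5-fold were PC (-1.23 by position, -0.58 by number of regions, -0.97 by position and relative), HK1 (1.58 by number of regions) and GAPDH (0.26 by position and relative). Genes short of 1.5-fold changed sign as well, among them LDHA (0.32 to -0.33 by position) and MDH2 (-0.35 to 0.81 by number of regions). GOT2 went from 0.08 to -1.10 at a −log10 q-value of at least 5.

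Shares of regions met by the other genotype were 31.6% and 35.6% for RPB1 in WT and KO and 27.1% and 33.6% for pSer2 with a reciprocal overlap of 50%. At a −log10 q-value of at least 5 they were 66.2% and 79.7% for RPB1 and 75.2% for pSer2 in KO.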
